A study of Mus musculus with 16 samples.

Results

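The genes described here serve antigen presentation by the major histocompatibility complex (MHC). They are the genes of the table whose symbol begins with H2-, together with Cd74, B2m, Tap1, Tap2, Tapbp, Ciita, Nlrc5, Psmb8, Psmb9 and Psmb10. The rule found 34 genes among 19373, of which 24 belong to the class I pathway and 9 to the class II pathway. The remaining 1, H2-Ke6, carries an H2- name and encodes a steroid dehydrogenase and no MHC molecule. Levels are FPKM values (fragments per kilobase of transcript, scaled to the fragments mapped). Of the 34 genes, 26 reached 1 FPKM in 4 or more mice and were tested, which were 18 of class I, 7 of class II and H2-Ke6, among 13148 genes tested in all.

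RNA came from gonadal white adipose tissue of 16 male mice on the C57Bl6/J background, with 4 mice in each of 4 groups, named Flox Chow, ASKO Chow, Flox HFD and ASKO HFD. Each diet, chow or a high-fat diet (HFD), was given for 20 weeks. Flox and ASKO mice shared a floxed Mboat7 allele, and ASKO mice also carried Cre recombinase driven by the adiponectin promoter, which is active in adipocytes, so that other cells of the fat pad kept the gene. All animals were perfused with saline before the fat was taken, the mice of a group are numbered from 0 to 3, and the labels give no ages.

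Class I molecules consist of a heavy chain and the light chain B2m, are carried by nearly all nucleated cells, and show peptides that the proteasome has cut from the cell's own proteins. Class II molecules consist of an alpha and a beta chain, are made mainly by macrophages, dendritic cells and B cells, and show peptides of engulfed material to helper T cells. In the fat of obese animals, macrophages that surround dying adipocytes carry class II molecules, and adipocytes themselves can carry them.

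Mboat7, the targeted gene, encodes an acyltransferase that attaches arachidonic acid to lysophosphatidylinositol. In Flox Chow mice 0 to 3 it stood at 2.42, 4.33, 0.902 and 4.99 FPKM, and in ASKO Chow mice at 0, 1.39, 0 and 2.89 FPKM. In Flox HFD mice it stood at 0, 0, 2.15 and 1.61 FPKM, and in ASKO HFD mice at 1.14, 0, 2.60 and 0 FPKM. The genotypes overlapped on both diets, so the level of Mboat7 in this bulk tissue did not check the genotype labels. The ASKO minus Flox difference was -1.12 on the log2(FPKM + 1) scale on chow (SE 0.62, limma adjusted p 0.983; exact two-sided permutation p 0.143, n = 4 per group). On HFD it was -0.02 (adjusted p 1).

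The low FPKM values of the table fell in steps, which shows how few fragments stood behind them. For a transcript of 1 kb, a single fragment was worth between 2.35 and 4.02 FPKM in the 16 mice, estimated from 1475 genes. Between 52.2% and 79.0% of their low values lay no more than 0.2 of a step from a multiple of it. Evenly spread values would give 40% at a step fixed beforehand. The step was fitted to these same values, which raises the share. With few fragments behind a low value, a gene listed at 0 is not shown to be absent. Of 2245 genes with a median of at least 20 FPKM, 232 were listed at 0 in at least 1 mouse, among them 6 of 39 ribosomal protein genes, which every cell uses. Group means are not given for single genes with such zeros, and the summed levels of lists include genes that have them. Differences are given as log2 differences of FPKM + 1, which understate the change of genes with low levels. A 0 left by a missed fragment can also enlarge or shrink a difference.

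The tissue label was checked against 9 adipocyte markers, and each was found and tested. Fabp4, a fatty acid carrier of adipocytes, was the most abundant, with a mean of 8054 FPKM over the 16 mice. Adipoq, the adipokine adiponectin, stood at 1414 ± 364 FPKM in Flox Chow mice (mean ± SD, n = 4), 1061 ± 308 in ASKO Chow, 438 ± 72.8 in Flox HFD and 398 ± 59.8 in ASKO HFD. Of 6 markers of the neighbouring epididymis, 5 were not in the table and Adam7 was above 0 in 1 mouse only, at 0.736 FPKM in Flox HFD mouse 3.

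Levels within the set spanned a wide range. In class I the highest was B2m, with a mean of 772 FPKM over the 16 mice, followed by the heavy chains H2-K1 (161) and H2-D1 (133). The lowest tested class I gene was Nlrc5, the transactivator of class I genes, with a mean of 1.11 FPKM. In class II the highest was H2-Eb1 (84.9 FPKM), followed by H2-Aa (78.1) and H2-Ab1 (73.4), and these means lay closer together than the spread of each gene over mice. The lowest tested class II gene was H2-Ob, a subunit of the inhibitor of peptide exchange, at 0.920 FPKM and listed at 0 in 12 mice. H2-K1 and H2-D1 made up 79.2% of the summed FPKM of the 16 class I heavy chain genes, of which 10 were tested. Of the 34 genes, 29 lie on chromosome 17 (22 of the tested ones), B2m lies on chromosome 2, Nlrc5 and Psmb10 on 8, Ciita on 16 and Cd74 on 18.

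The first question of the design was what the diet does within each genotype. A gene was taken to pass where its adjusted p was under 0.05 and its log2 difference was past 0.5 in size. In Flox mice 3 of the 26 tested genes passed, H2-Ab1, H2-Q6 and H2-T23, each higher on HFD, where 2.91% of all genes tested passed. In ASKO mice 2 passed, H2-Aa and H2-Eb1, again higher on HFD, where 3.43% of all genes passed. None of the 26 fell past the limits in either genotype. The 2 diet comparisons share no mouse, but their spread comes from one fit. With both genotypes averaged, 5 genes passed (H2-Aa, H2-Ab1, H2-Eb1, H2-Q6 and H2-T23, all higher on HFD), where 7.53% of all genes passed. Without any test, 5 of the 26 had no overlap between the diets in Flox mice, where 8.34% of all genes had none, and 6 of 26 had none in ASKO mice, where 9.60% had none.

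The classical class II chains make up the molecules that hold the peptide. H2-Aa encodes the alpha chain of I-A. In Flox Chow mice 0 to 3 its level was 63.6, 61.0, 54.0 and 27.0 FPKM, and in Flox HFD mice it was 178, 116, 105 and 88.3 FPKM. In ASKO Chow mice it was 12.4, 45.6, 25.3 and 25.0 FPKM, and in ASKO HFD mice 85.1, 164, 68.8 and 131 FPKM. Every HFD mouse stood above every chow mouse of either genotype. The HFD minus chow difference was 2.07 in ASKO mice (SE 0.40, adjusted p 0.00694) and 1.25 in Flox mice (SE 0.40, adjusted p 0.123). The difference between these, the interaction of genotype and diet, was 0.82 (SE 0.57, adjusted p 0.857), so the genotypes are not shown to differ. Averaged over genotypes the diet difference was 1.66 (SE 0.28, adjusted p 0.00114). The ASKO and the averaged difference of H2-Aa passed under every alternative tried, including the omission of each mouse in turn. For the ASKO difference the adjusted p ran from 0.00309 to 0.0457 over these.

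H2-Ab1 encodes the beta chain that pairs with H2-Aa. In Flox Chow mice its level was 35.5, 35.0, 28.2 and 48.1 FPKM, and in Flox HFD mice it was 122, 106, 60.7 and 144 FPKM. In ASKO Chow mice it was 33.1, 62.6, 55.7 and 26.5 FPKM, and in ASKO HFD mice 87.2, 157, 89.3 and 83.5 FPKM. The diets did not overlap within either genotype, although Flox HFD mouse 2 lay below ASKO Chow mouse 1. The diet difference was 1.49 in Flox mice (SE 0.35, adjusted p 0.0240) and 1.24 in ASKO mice (SE 0.35, adjusted p 0.0592), with an interaction of -0.25 (adjusted p 0.964). The averaged difference was 1.37 (SE 0.24, adjusted p 0.00165). The Flox result no longer passed when Flox Chow mouse 0, 1 or 2 was left out (adjusted p 0.0564, 0.0650 and 0.0803) or Flox HFD mouse 0, 1 or 3 (0.0628, 0.0643 and 0.0810). It also did not pass without the intensity trend (0.0543) or with adjustment over the 5 comparisons (0.0540). Over all alternatives its adjusted p ran from 0.0119 to 0.0810. The ASKO result passed without ASKO Chow mouse 1 (0.0459) and without Flox HFD mouse 2 (0.0435). It passed as well with the filter of 5 FPKM (0.0406), quantile normalization (0.0222) and upper-quartile scaling (0.0250), with a range from 0.0222 to 0.179 over the alternatives.

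H2-Eb1 encodes the beta chain of I-E, whose alpha chain gene is defective in mice of the C57BL/6 background, so that no I-E molecule reaches the cell surface. In Flox Chow mice its level was 43.2, 51.6, 48.8 and 49.1 FPKM, and in Flox HFD mice it was 146, 90.2, 85.8 and 117 FPKM. In ASKO Chow mice it was 22.0, 44.0, 63.8 and 41.8 FPKM, and in ASKO HFD mice 85.9, 206, 113 and 149 FPKM. All 8 HFD mice stood above all 8 chow mice. The diet difference was 1.69 in ASKO mice (SE 0.33, adjusted p 0.00720) and 1.14 in Flox mice (SE 0.33, adjusted p 0.0822), with an interaction of 0.55 (adjusted p 0.883). The averaged difference was 1.42 (SE 0.23, adjusted p 0.000872), the smallest adjusted p of the 26 genes. Without ASKO Chow mouse 0 the Flox difference of 1.14 passed as well (adjusted p 0.0412), with a range from 0.0412 to 0.185 over the alternatives. With only the 2 compared groups in the fit, the ASKO result did not pass (adjusted p 0.0648), where the alternatives ran from 0.00281 to 0.0648.

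Summed over these 3 chains, class II stood at 136 ± 10.6 FPKM in Flox Chow mice (mean ± SD, n = 4) and 114 ± 40.9 in ASKO Chow mice. The sum was 339.7 ± 81.9 in Flox HFD mice and 355 ± 124 in ASKO HFD mice. The 8 chow mice ranged from 67.4 to 152 FPKM and the 8 HFD mice from 251 to 527 FPKM. In bulk samples, more cells that carry class II and more class II RNA per cell cannot be told apart. None of the 3 chain genes overlaps another annotated gene, and at most 0.488% of their 50-base stretches (H2-Aa) occur elsewhere in the annotated transcripts.

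**Figure D1:**
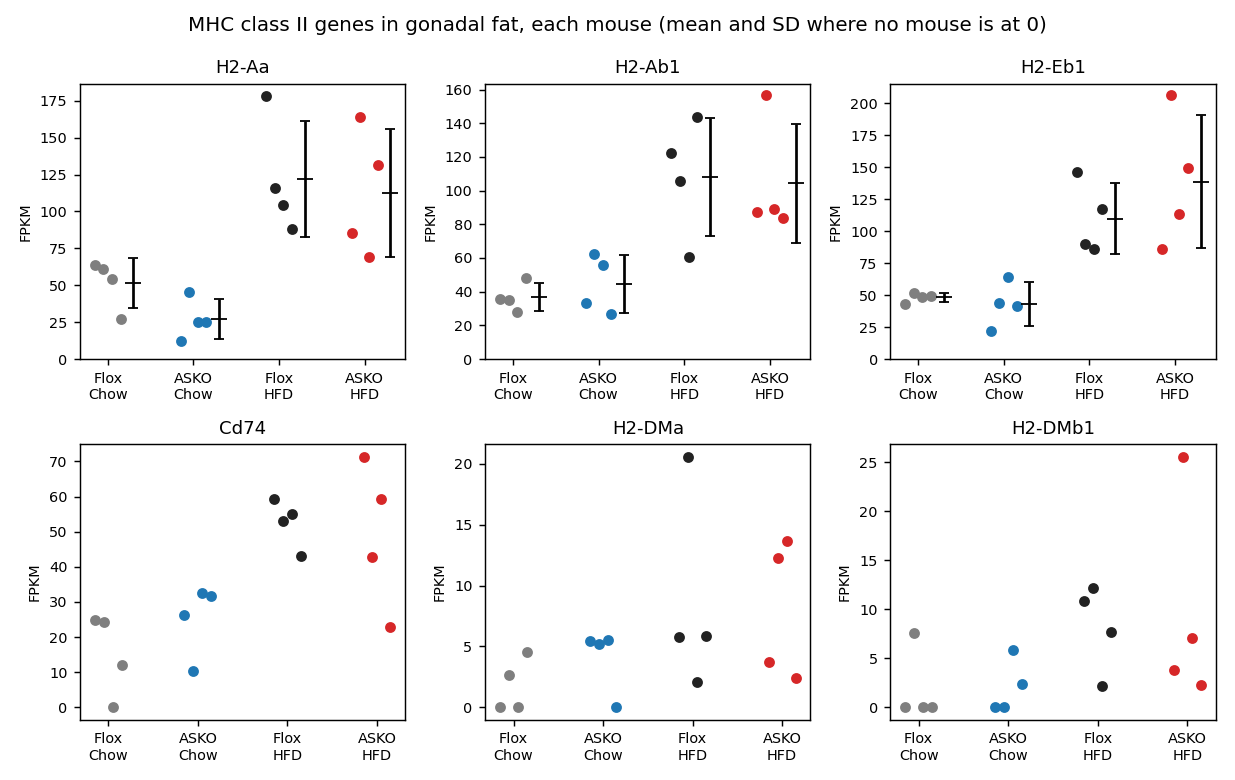
Levels of 6 class II genes in FPKM (vertical axes) in each mouse of the 4 groups (horizontal axes). Points are mice, and bars beside them are the mean and SD, drawn only for genes with no mouse at 0; the HFD points of H2-Aa and H2-Eb1 all lie above the chow points.

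H2-Aa and H2-Eb1 both passed for diet in ASKO mice, and the bases in front of their starts are shown with the letters of promoter elements that class II genes are known for. The windows hold the 180 bases upstream of the start (RefSeq, GRCm38.p6) and were found for 21 of the 26 tested genes. No entry was found for Cd74, H2-Ab1, H2-T24, Nlrc5 and Tap2. The H2-Aa window is on the minus strand, chr17:34287824-34288003, and the H2-Eb1 window on the plus strand, chr17:34305687-34305866. Capitals mark the Y box (ATTGG, or CCAAT on the other strand), the core of the X1 box (GCAAC, then any 2 bases, then ATG, read on either strand) and the core of the cyclic AMP response element (TGACG, or CGTCA). In H2-Aa the matches of TGACG on both strands overlap.
H2-Aa: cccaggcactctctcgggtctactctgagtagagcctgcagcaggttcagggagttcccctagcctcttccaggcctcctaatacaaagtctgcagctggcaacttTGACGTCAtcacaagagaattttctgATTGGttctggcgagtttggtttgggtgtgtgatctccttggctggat
H2-Eb1: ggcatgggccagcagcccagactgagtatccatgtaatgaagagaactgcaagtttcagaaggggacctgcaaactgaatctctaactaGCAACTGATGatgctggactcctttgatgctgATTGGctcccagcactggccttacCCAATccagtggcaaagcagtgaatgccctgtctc

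In H2-Aa the first letter of the Y box on the coding strand lies 48 bases before the start, and that of TGACG 74 bases before it. In H2-Eb1 the Y box on the coding strand lies 59 bases and the X1 core 91 bases before the start. The Y box letters were in 27.5% of 32851 windows of the same length, and in 4 of the 5 class II windows (H2-Aa, H2-DMb1, H2-Eb1 and H2-Ob) and 11 of the 15 class I windows. The X1 core was in 0.310% of all windows, and in H2-Eb1, H2-Ob and no class I window. TGACG was in 14.8% of all windows, in 1 class II window (H2-Aa) and in 9 class I windows. The starts are those of RefSeq, and for 15 of the 21 genes a window reaches into the gene as GENCODE M21 places it, by 1 base up to the whole window. H2-Aa and H2-Eb1 are not among them. These matches describe letters and do not show binding.

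Cd74 encodes the invariant chain, which fills the class II groove until a peptide takes its place. In Flox Chow mice its level was 24.9, 24.4, 0 and 12.04 FPKM, and in Flox HFD mice it was 59.4, 53.0, 55.0 and 43.0 FPKM. In ASKO Chow mice it was 26.4, 10.2, 32.4 and 31.8 FPKM, and in ASKO HFD mice 71.3, 42.7, 59.4 and 22.7 FPKM. The diets did not overlap in Flox mice and overlapped in ASKO mice through ASKO HFD mouse 3. The diet difference was 2.47 in Flox mice (SE 0.77, adjusted p 0.112) and 0.94 in ASKO mice (SE 0.77, adjusted p 0.643), with an interaction of -1.53 (adjusted p 0.862). The averaged difference was 1.70 (SE 0.55) and did not pass, at an adjusted p of 0.0713. It passed without Flox Chow mouse 2, the mouse listed at 0, at a difference of 1.16 (adjusted p 0.0339). It also passed without Flox Chow mouse 0 (1.94, adjusted p 0.0427) or Flox Chow mouse 1 (1.94, adjusted p 0.0455), and with upper-quartile scaling (1.86, adjusted p 0.0455). Over all alternatives its adjusted p ran from 0.0339 to 0.183.

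H2-DMa and H2-DMb1 encode the molecule that exchanges the Cd74 fragment for a peptide. H2-DMa was at 0, 2.67, 0 and 4.52 FPKM in Flox Chow mice and at 5.75, 20.6, 2.07 and 5.82 FPKM in Flox HFD mice. It was at 5.47, 5.22, 5.502 and 0 FPKM in ASKO Chow mice and at 3.68, 12.3, 13.7 and 2.40 FPKM in ASKO HFD mice. The diets overlapped, and the averaged difference of 1.35 did not pass (SE 0.57, adjusted p 0.187). H2-DMb1 was at 0, 7.62, 0 and 0 FPKM in Flox Chow mice and at 10.9, 12.2, 2.13 and 7.73 FPKM in Flox HFD mice. It was at 0, 0, 5.82 and 2.38 FPKM in ASKO Chow mice and at 3.75, 25.6, 7.10 and 2.23 FPKM in ASKO HFD mice. Of the 5 zeros of H2-DMb1 all were in chow mice. Its averaged difference of 2.02 did not pass (SE 0.61, adjusted p 0.0538). It passed without Flox Chow mouse 1 (2.40, adjusted p 0.0138), ASKO Chow mouse 2 (2.29, 0.0295), Flox HFD mouse 2 (2.24, 0.0385) or ASKO HFD mouse 3 (2.22, 0.0444). It passed as well with a pseudocount of 0.1, which raises the weight of the zeros (3.96, 0.0422), the filter of 5 FPKM (2.02, 0.0457) and upper-quartile scaling (2.12, 0.0368), with a range from 0.0138 to 0.112 over the alternatives. The level of H2-DMb1 is uncertain because 22.7% of its 50-base stretches occur in other genes, its copy H2-DMb2 among them. For H2-DMa, 10.4% of the exon bases lie opposite Brd2, with the strand setting of the counting not stated.

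H2-DMb2 was under the filter, with 5.27 FPKM in Flox Chow mouse 1, 5.04 and 2.71 FPKM in ASKO Chow mice 1 and 3, and 0 in the other mice. H2-Ob was at 1.61 and 5.25 FPKM in ASKO Chow mice 0 and 3, 5.81 FPKM in Flox HFD mouse 0 and 2.06 FPKM in ASKO HFD mouse 2, and listed at 0 elsewhere. Ciita, the transactivator that class II genes need, was above 0 only in ASKO HFD mice 0 and 2, at 0.509 and 0.469 FPKM. Its longest transcript has 6007 bases, so such levels stand for about 1 fragment. The median diet difference of the 7 tested class II genes was 1.49 in Flox mice, 1.24 in ASKO mice and 1.42 averaged, where the medians of all genes tested were 0.00, 0.03 and 0.01.

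Class I heavy chains carry the peptide on the cell surface, and the classical ones in this strain are H2-K1 and H2-D1. H2-K1 was at 99.3, 199, 79.8 and 123 FPKM in Flox Chow mice and at 128, 208, 174 and 159 FPKM in Flox HFD mice. It was at 122, 173, 100.1 and 80.1 FPKM in ASKO Chow mice and at 256, 268, 161 and 241 FPKM in ASKO HFD mice. The diets overlapped in both genotypes, in Flox mice through Flox Chow mouse 1 and in ASKO mice through ASKO Chow mouse 1. The diet difference of H2-K1 was 0.48 in Flox mice (SE 0.31, adjusted p 0.543) and 0.99 in ASKO mice (SE 0.31, adjusted p 0.1001), with an interaction of 0.51 (adjusted p 0.883). The averaged difference of 0.73 did not pass (SE 0.22, adjusted p 0.0508). It passed without Flox Chow mouse 1 (0.86, adjusted p 0.0192), ASKO Chow mouse 1 (0.83, 0.0293), Flox HFD mouse 0 (0.79, 0.0406) or ASKO HFD mouse 2 (0.82, 0.0389). It passed as well with the filter of 5 FPKM (adjusted p 0.0359), quantile normalization (0.0193), upper-quartile scaling (0.00966), robust estimation (0.0486) and the replicate number as a block (0.0241), with a range from 0.00966 to 0.113 over the alternatives.

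H2-D1 was at 109.7, 164, 64.0 and 126 FPKM in Flox Chow mice and at 126, 151, 138 and 156 FPKM in Flox HFD mice. It was at 94.1, 118, 89.0 and 106 FPKM in ASKO Chow mice and at 168, 198, 159 and 164 FPKM in ASKO HFD mice. The diets did not overlap in ASKO mice, and Flox Chow mouse 1 stood above every Flox HFD mouse. The diet difference of H2-D1 was 0.76 in ASKO mice (SE 0.26, adjusted p 0.142) and 0.37 in Flox mice (SE 0.26, adjusted p 0.587), with an interaction of 0.39 (adjusted p 0.901). The averaged difference was 0.56 (SE 0.18, adjusted p 0.0768), and it passed without Flox Chow mouse 1 (0.66, adjusted p 0.0362), with quantile normalization (0.63, adjusted p 0.0377) and with upper-quartile scaling (0.71, adjusted p 0.0154), with a range from 0.0154 to 0.174 over the alternatives. With upper-quartile scaling, which moved the median diet difference of all genes by 0.15 in ASKO mice and by 0.10 averaged, H2-K1 and H2-D1 passed in ASKO mice at 1.21 and 0.98 (adjusted p 0.0222 and 0.0339). With quantile normalization, which moved that median by -0.04, they passed there at 1.20 and 0.96 (adjusted p 0.0271 and 0.0456). Over all alternatives the adjusted p in ASKO mice ran from 0.0222 to 0.240 for H2-K1 and from 0.0339 to 0.296 for H2-D1.

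H2-Q6 is a class Ib heavy chain of the Qa region. It was at 0, 0, 1.45 and 4.12 FPKM in Flox Chow mice and at 4.97, 14.2, 7.83 and 12.2 FPKM in Flox HFD mice. It was at 6.13, 1.74, 3.003 and 4.93 FPKM in ASKO Chow mice and at 10.02, 22.4, 11.5 and 7.83 FPKM in ASKO HFD mice. The diets did not overlap within either genotype. The diet difference was 2.43 in Flox mice (SE 0.56, adjusted p 0.0241) and 1.49 in ASKO mice (SE 0.56, adjusted p 0.198), with an interaction of -0.95 (adjusted p 0.878). The averaged difference was 1.96 (SE 0.40, adjusted p 0.00469) and passed under every alternative tried. The Flox result no longer passed without Flox Chow mouse 0 (adjusted p 0.0757), Flox Chow mouse 1 (0.0860), Flox HFD mouse 1 (0.0821) or Flox HFD mouse 3 (0.0715). It also did not pass with only the compared groups (0.111) or with adjustment over the 5 comparisons (0.0546). Over all alternatives the adjusted p in Flox mice ran from 0.00810 to 0.111. Its level is uncertain, because 32.0% of its 50-base stretches occur in other genes, H2-Q7 among them.

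H2-T23 encodes Qa-1, a heavy chain that shows signal peptides of other class I molecules to receptors of natural killer cells. It was at 0, 0, 0 and 19.8 FPKM in Flox Chow mice and at 28.4, 32.9, 10.4 and 14.9 FPKM in Flox HFD mice. It was at 8.63, 29.5, 3.59 and 15.5 FPKM in ASKO Chow mice and at 16.1, 19.1, 18.9 and 25.6 FPKM in ASKO HFD mice. The diets overlapped in both genotypes, and the 3 lowest values were the zeros of Flox Chow mice 0, 1 and 2. The diet difference was 3.27 in Flox mice (SE 0.83, adjusted p 0.0402) and 0.76 in ASKO mice (SE 0.83, adjusted p 0.750). The interaction was -2.51 (SE 1.17, adjusted p 0.791). The averaged difference was 2.01 (SE 0.59, adjusted p 0.0440). Of its 50-base stretches, 13.6% occur in other genes, H2 genes among them.

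Both results of H2-T23 depended on single mice and on the processing. The Flox result no longer passed without a filter (adjusted p 0.0669), with only the compared groups (0.160), without the intensity trend (0.0503) or with adjustment over the 5 comparisons (0.0886). The averaged result no longer passed without a filter (0.0729) or without the intensity trend (0.0518). With mice left out, the Flox result was lost without Flox Chow mouse 0, 1 or 2 (adjusted p 0.114, 0.130 and 0.130) or without Flox HFD mouse 0, 1, 2 or 3 (0.0994, 0.118, 0.0503 and 0.0715). It also did not pass without ASKO Chow mouse 3 (0.0505) or ASKO HFD mouse 0, 1, 2 or 3 (0.0542, 0.0547, 0.0535 and 0.0534), which change only the shared spread. The averaged result was lost without Flox Chow mouse 0, 1 or 2 (0.0897, 0.0912 and 0.0924) or ASKO Chow mouse 0, 2 or 3 (0.0733, 0.0851 and 0.0599). Nor did it pass without Flox HFD mouse 0, 1 or 3 (0.0763, 0.0878 and 0.0612) or ASKO HFD mouse 0, 1, 2 or 3 (0.0672, 0.0718, 0.0714 and 0.0812). Over all alternatives the adjusted p ran from 0.000543 to 0.160 in Flox mice and from 0.000541 to 0.0924 averaged.

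The window in front of H2-Q6 is shown because this class I gene passed for diet in Flox mice and averaged. It is on the plus strand, chr17:35424670-35424849 (RefSeq, GRCm38.p6). Capitals mark the Y box, a kappaB element (GGG, then any 1 base, then ATTCCC, read on either strand) and an element like the interferon-stimulated response element (GAANNGAAA, or TTTCNNTTC), and none of these matches overlap. The RefSeq window of H2-T23 is not shown, since 154 of its 180 bases lie inside the gene as GENCODE M21 places it.
H2-Q6: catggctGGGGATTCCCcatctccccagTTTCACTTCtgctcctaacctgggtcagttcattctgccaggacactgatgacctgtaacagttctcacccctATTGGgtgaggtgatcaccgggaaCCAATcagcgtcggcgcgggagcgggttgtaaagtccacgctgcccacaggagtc

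The kappaB letters were in 0.116% of all windows and in 4 of the 15 class I windows, those of H2-D1, H2-K1, H2-Q6 and H2-Q7. The interferon element was in 4.42% of all windows and in 7 class I windows, those of H2-D1, H2-K1, H2-M3, H2-Q10, H2-Q4, H2-Q6 and H2-Q7. Neither was in a class II window. H2-D1, H2-K1, H2-Q6 and H2-Q7 are related genes, and their windows are not independent of each other.

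The other tested heavy chains did not pass in any comparison. H2-Q4 stood at 8.11 ± 4.89 FPKM in Flox Chow mice and 19.8 ± 5.49 in Flox HFD mice, and 13.1 ± 5.41 in ASKO Chow mice and 20.6 ± 9.23 in ASKO HFD mice. Its averaged difference of 0.97 (SE 0.32, adjusted p 0.0870) passed without Flox Chow mouse 3 (1.12, adjusted p 0.0484) and with upper-quartile scaling (1.11, adjusted p 0.0466), with a range from 0.0466 to 0.174 over the alternatives. H2-Q7, which encodes Qa-2, was listed at 0 in 5 mice and reached 25.6 FPKM in ASKO HFD mouse 1. Its averaged difference of 1.88 (SE 0.73, adjusted p 0.149) passed without Flox HFD mouse 0 (2.31, adjusted p 0.0464), the only HFD mouse listed at 0, with a range from 0.0464 to 0.265 over the alternatives. H2-T22, a ligand of gamma delta T cell receptors, ranged from 3.74 FPKM in Flox Chow mouse 0 to 41.1 FPKM in ASKO Chow mouse 0. H2-M3, which shows formylated peptides, was listed at 0 in 7 mice, H2-Q10 in 6 and H2-T24 in 1.

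For these genes shared sequence also limits the values. Of the 50-base stretches, 34.5% of H2-T22, 26.4% of H2-Q7, 21.8% of H2-Q4 and 19.0% of H2-Q10 occur in other genes, H2 genes among them. The share was 12.8% for H2-D1 and 9.63% for H2-K1. H2-Q4 also lies partly opposite another gene, Gm11131 (19.1% of its exon bases), as H2-T22 does opposite A930015D03Rik (29.4%). The 6 heavy chain genes under the filter were H2-M2, H2-M9, H2-M10.6, H2-Q5, H2-T3 and H2-T10, and none was above 4.32 FPKM in any mouse. All 10 tested heavy chains had a positive averaged diet difference, with a median of 0.71. Summed, the heavy chains stood at 277 ± 98.0 FPKM in Flox Chow mice, 296 ± 56.8 in ASKO Chow, 403 ± 57.4 in Flox HFD and 509 ± 88.9 in ASKO HFD (mean ± SD, n = 4).

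**Figure D2:**
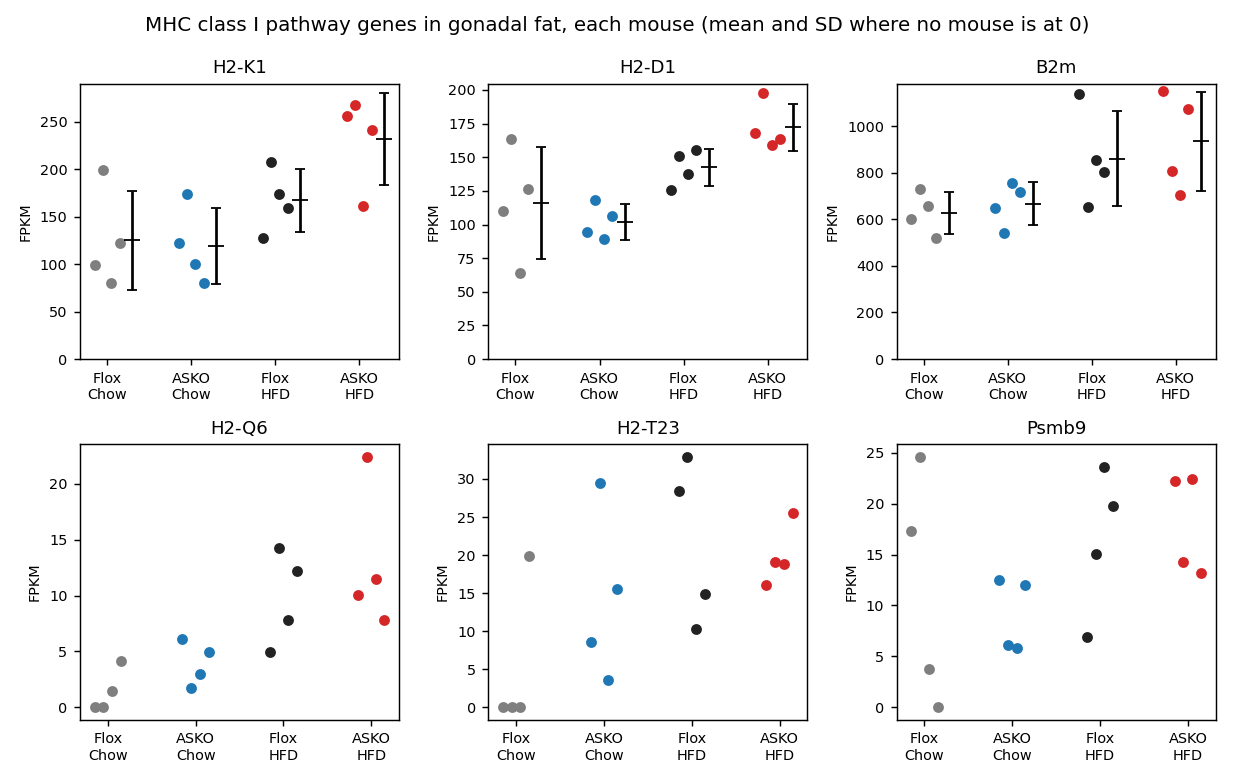
Levels of 6 class I genes in FPKM (vertical axes) in each mouse of the 4 groups (horizontal axes). Points are mice, and bars beside them are the mean and SD, drawn only for genes with no mouse at 0; the 3 Flox Chow mice at 0 in H2-T23 stand apart from Flox Chow mouse 3 at 19.8 FPKM.

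B2m, the light chain of all class I molecules, shares no 50-base stretch with another gene. It was at 600.0, 732, 658 and 520.3 FPKM in Flox Chow mice and at 1137, 652, 853 and 803 FPKM in Flox HFD mice. It was at 651, 543, 754 and 718 FPKM in ASKO Chow mice and at 1151, 809, 705 and 1072 FPKM in ASKO HFD mice. The diets overlapped in both genotypes. The averaged diet difference was 0.45 (SE 0.16, adjusted p 0.104), made up of 0.44 in Flox mice and 0.47 in ASKO mice. It passed under quantile normalization (0.60, adjusted p 0.0381) and upper-quartile scaling (0.61, adjusted p 0.0357), with a range from 0.0357 to 0.273 over the alternatives.

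Peptides enter the endoplasmic reticulum through the transporter of Tap1 and Tap2, and Tapbp, called tapasin, holds the class I molecule beside it. Tap1 ranged from 0 to 4.27 FPKM and Tap2 from 0 to 4.15 FPKM, so both stood on few fragments. Tap2 lies opposite other genes over 18.5% of its exon bases, and Tap1 opposite Psmb9 over 3.87%. Tapbp was at 28.3 ± 5.15 FPKM in Flox Chow mice, 33.3 ± 6.77 in ASKO Chow, 28.8 ± 18.9 in Flox HFD and 18.2 ± 6.35 in ASKO HFD (mean ± SD, n = 4). The diet difference of Tapbp was -0.87 in ASKO mice (SE 0.38, adjusted p 0.283) and -0.15 in Flox mice (adjusted p 0.924), and neither passed. The value is uncertain, since 24.9% of the exon bases of Tapbp lie opposite another gene. Nlrc5 was listed at 0 in 8 mice and reached 5.35 FPKM in Flox HFD mouse 0.

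Psmb8, Psmb9 and Psmb10 replace catalytic subunits of the proteasome and form the immunoproteasome, which favours peptides that class I molecules bind. Psmb9 was at 17.3, 24.6, 3.79 and 0 FPKM in Flox Chow mice and at 6.92, 15.04, 23.6 and 19.8 FPKM in Flox HFD mice. It was at 12.5, 6.09, 5.78 and 12.1 FPKM in ASKO Chow mice and at 22.3, 14.3, 22.4 and 13.2 FPKM in ASKO HFD mice. The diets did not overlap in ASKO mice, yet the difference of 0.95 there did not pass (SE 0.75, adjusted p 0.625). Psmb8 was at 6.83 ± 6.13 FPKM in Flox Chow, 9.09 ± 3.04 in ASKO Chow, 8.85 ± 4.40 in Flox HFD and 15.3 ± 5.36 in ASKO HFD mice, with an averaged difference of 0.66 (SE 0.40, adjusted p 0.410). Psmb10 was listed at 0 in 6 mice. Psmb8 lies opposite Gm20496 over 14.7% of its exon bases, and Psmb9 opposite Tap1 over 5.79%.

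Summed, the immunoproteasome genes stood at 21.5 ± 12.8 FPKM in Flox Chow mice, 21.9 ± 2.11 in ASKO Chow, 28.5 ± 2.39 in Flox HFD and 37.4 ± 6.04 in ASKO HFD. The constitutive counterparts Psmb5, Psmb6 and Psmb7 summed to 179 ± 83.4, 244 ± 94.8, 191 ± 83.7 and 191 ± 75.1 FPKM in the same order, and none of the 3 passed in any comparison. The median diet difference of the 18 tested class I genes was 0.64 in Flox mice, 0.65 in ASKO mice and 0.56 averaged. H2-Ke6 was at 40.8 ± 19.5 FPKM in Flox Chow, 40.8 ± 22.0 in ASKO Chow, 23.2 ± 17.3 in Flox HFD and 21.6 ± 17.96 in ASKO HFD mice, with an averaged difference of -1.005 (SE 0.43, adjusted p 0.204). Its value is uncertain, since 70.5% of its 50-base stretches occur in other genes, and Gm20427 overlaps it on the same strand.

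**Figure D3:**
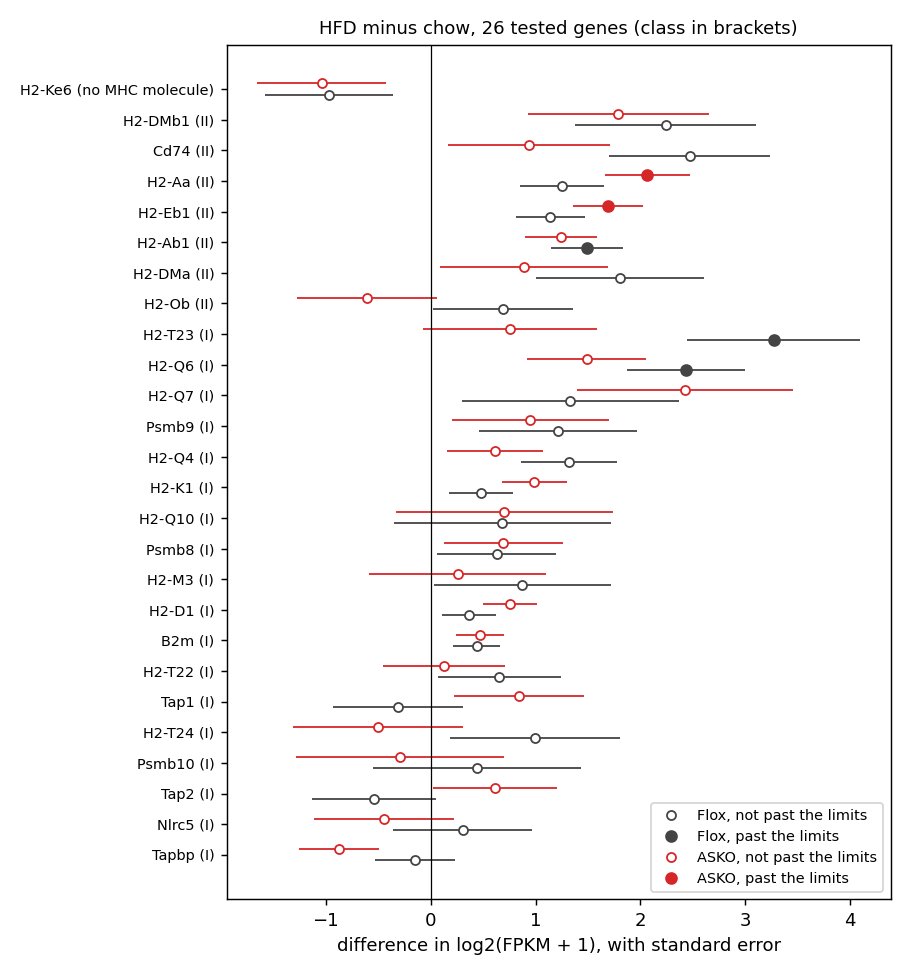
HFD minus chow difference in log2(FPKM + 1), with its standard error (horizontal axis), for the 26 tested genes (vertical axis, class in brackets) in Flox and ASKO mice. Filled points are past the limits (H2-Ab1, H2-Q6 and H2-T23 in Flox mice, H2-Aa and H2-Eb1 in ASKO mice).

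The second question of the design was what loss of Mboat7 from adipocytes does on each diet. On HFD limma called 0 of the 26 genes, where 0.00761% of all genes tested were called. At an unadjusted p under 0.05 it was also 0 of 26, where 5.15% of all genes had one. The genotypes did not overlap on HFD in 1 of the 26, H2-D1, where 3.38% of all genes had no overlap, so a count of 1 is near the share of all genes. Its 4 ASKO HFD mice lay between 159 and 198 FPKM and its 4 Flox HFD mice between 126 and 156 FPKM. The difference was 0.27 (SE 0.26, limma adjusted p 0.993). Its exact two-sided permutation p was 0.0286, a value that the absence of overlap fixes for 4 mice against 4, so it adds nothing to that count. The median genotype difference on HFD was 0.33 for the 13 macrophage markers, -0.35 for the 6 tested dendritic cell markers, -1.16 for the 3 tested B cell markers and -0.53 for the 2 tested T cell markers. Single markers also had genotypes without overlap on HFD, and every such marker of the cell marker lists is named here. These were 1 of 13 macrophage markers (C1qb, higher in ASKO mice), 1 of 6 dendritic cell markers (Itgax, higher) and 1 of 3 B cell markers (Ighm, lower), with 0 of 2 T cell and 0 of 9 adipocyte markers. Ptprc, carried by all leukocytes, was higher without overlap as well. Itgax was at 8.51 to 26.3 FPKM in Flox HFD and 34.6 to 47.4 FPKM in ASKO HFD mice, against the direction of its list's median. The B cell marker Cd79a also went against its list's median, at 0, 0, 1.84 and 0 FPKM in Flox HFD mice. In ASKO HFD mice Cd79a was at 5.29, 0, 2.95 and 2.03 FPKM. The remaining tested B cell marker, Cd79b, was at 2.22, 3.22, 2.74 and 0 FPKM in Flox HFD mice and at 0 in every ASKO HFD mouse. Among the pathway lists described below, Ctss and Ctsb (class II processing) and Ifngr2 (interferon gamma pathway) were also higher in ASKO HFD mice without overlap. Ctss was at 256 to 299 FPKM in Flox HFD and 328 to 477 FPKM in ASKO HFD mice. In the same order Ctsb was at 222 to 278 and 285 to 399 FPKM. Ifngr2 was at 2.04 to 3.09 and 5.46 to 9.14 FPKM. Limma called 0 of the markers and 0 genes of these 2 pathway lists for genotype. The part of the markers in the level of H2-D1 was not tested. On chow the order of the H2-D1 means was the reverse, with 102 ± 13.1 FPKM in ASKO mice and 116 ± 41.3 in Flox mice, and the groups overlapped.

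H2-K1 was at 232 ± 48.1 FPKM in ASKO HFD mice and 167 ± 33.2 in Flox HFD mice, with a difference of 0.46 (SE 0.31, adjusted p 0.985; exact permutation p 0.0857). The chains of class II overlapped between genotypes on HFD, with 112 ± 43.4 FPKM in ASKO and 122 ± 39.3 in Flox mice for H2-Aa and 104 ± 35.2 in ASKO and 108 ± 35.2 in Flox mice for H2-Ab1. For H2-Eb1 the levels were 139 ± 51.9 FPKM in ASKO HFD mice and 109.8 ± 27.8 in Flox HFD mice, a difference of 0.29 (adjusted p 0.993). The median genotype difference on HFD was 0.19 for class I and -0.09 for class II, where it was 0.02 for all genes tested.

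On chow limma called 0 of the 26 genes, where 0.00761% of all genes were called. At an unadjusted p under 0.05 there were 3 of 26, H2-T23, H2-Aa and H2-Q6, where 4.80% of all genes had one. No gene of the 26 had genotypes without overlap on chow, where 2.19% of all genes had none. H2-Aa was at 27.1 ± 13.7 FPKM in ASKO Chow mice and 51.4 ± 16.8 in Flox Chow mice. Flox Chow mouse 3, at 27.0 FPKM, lay within the range of the ASKO Chow mice, and ASKO Chow mouse 1, at 45.6 FPKM, stood above it. The difference was -0.96 (SE 0.40, adjusted p 0.980; exact permutation p 0.0571). H2-Ab1, its partner chain, had a difference of 0.21 on chow (adjusted p 0.985).

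H2-T23 had a difference of 2.52 on chow (SE 0.83, adjusted p 0.875; exact permutation p 0.114), set against the zeros of 3 Flox Chow mice. H2-Q6 had a difference of 1.30 (SE 0.56, adjusted p 0.983; exact permutation p 0.114), with 2 Flox Chow mice listed at 0. The median genotype difference on chow was 0.51 for class I and 0.35 for class II, where it was 0.00 for all genes tested. The genotype comparison on each diet shares its mice with the diet comparisons above.

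The interaction asks whether the diet difference depends on the genotype. For the interaction limma called 0 of the 26 genes, where 0% of all genes were called. At an unadjusted p under 0.05 there was 1 of 26, H2-T23, where 6.30% of all genes had one. The median interaction was -0.39 for class I and -0.45 for class II, where it was 0.04 for all genes tested.

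**Figure D4:**
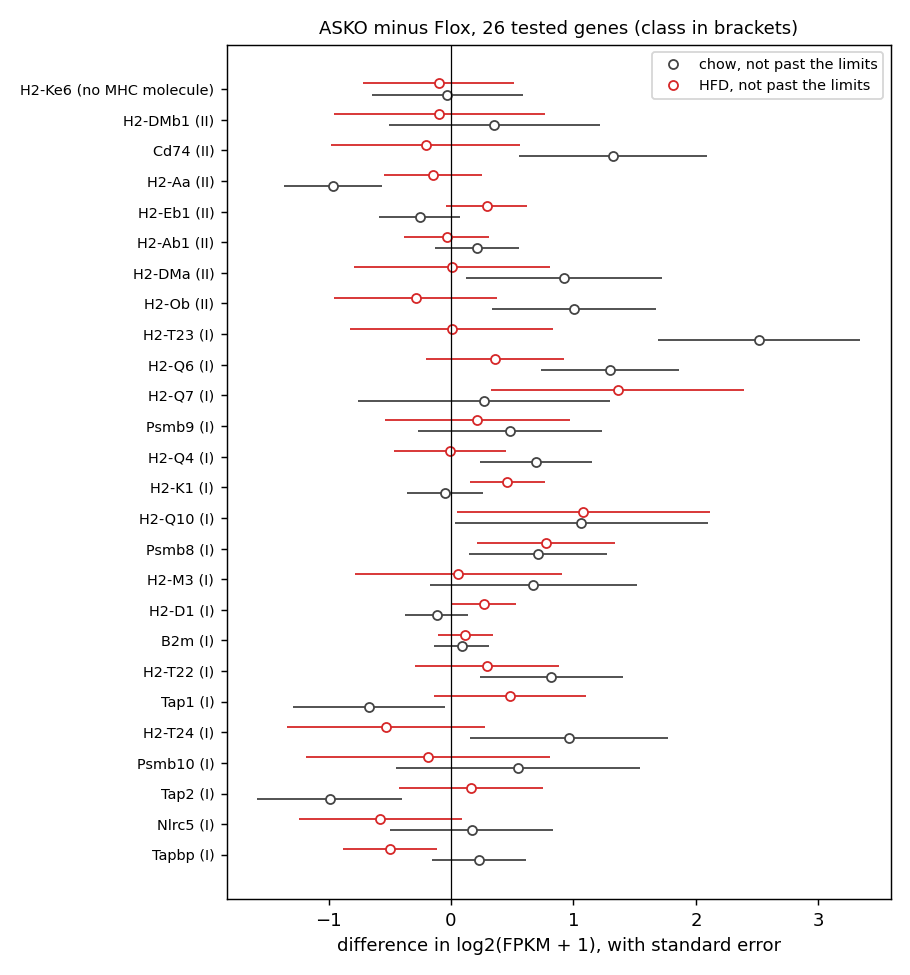
ASKO minus Flox difference in log2(FPKM + 1), with its standard error (horizontal axis), for the 26 tested genes (vertical axis, class in brackets) on chow and on HFD. Open points are not past the limits, and no gene is filled.

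Class II presentation also needs proteases that cut the antigen and the Cd74 chain and a reductase that opens the antigen, and 6 genes of this processing were tested. In Flox mice 3 rose on HFD, in ASKO mice 4, and averaged 5, with none lower. Of all genes tested, 2.91%, 3.43% and 7.53% passed in these comparisons, in the same order. The same shares stand beside the diet counts of all lists that follow. Ctss, cathepsin S, which cuts the last part of Cd74, was at 33.6, 27.3, 6.76 and 35.5 FPKM in Flox Chow mice and at 256, 287, 299 and 288 FPKM in Flox HFD mice. It was at 6.79, 27.9, 45.7 and 12.3 FPKM in ASKO Chow mice and at 330.5, 477, 355 and 328 FPKM in ASKO HFD mice. The diets were far apart, with differences of 3.62 in Flox mice (SE 0.51, adjusted p 0.000617) and 4.25 in ASKO mice (SE 0.51, adjusted p 0.000124). On HFD every ASKO mouse also stood above every Flox mouse for Ctss, although limma called 0 genes of this list for genotype. Lgmn, an asparagine endopeptidase, rose by 2.98 in Flox mice (SE 0.43) and 2.73 in ASKO mice (SE 0.43), with adjusted p 0.000684 and 0.00118.

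Ctsb, cathepsin B, rose by 1.11 in Flox mice (SE 0.23) and 1.73 in ASKO mice (SE 0.23), with adjusted p 0.0102 and 0.000274. Ctsl, cathepsin L, rose by 1.49 in ASKO mice (SE 0.33, adjusted p 0.0167) and averaged by 1.29 (SE 0.23, adjusted p 0.00187). Ifi30, a reductase of disulfide bonds in engulfed proteins, passed averaged, at 2.83 (SE 0.63, adjusted p 0.00911). The median difference of the 6 genes was 2.05 in Flox mice, 2.23 in ASKO mice and 2.12 averaged.

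The factors that bind class II promoters were tested as 7 genes. Rfxank, a subunit of the factor RFX, was at 78.2 ± 12.2 FPKM in Flox Chow and 156 ± 33.0 in Flox HFD mice, and at 90.0 ± 23.3 in ASKO Chow and 140.1 ± 22.1 in ASKO HFD mice. It rose in Flox mice by 0.98 (SE 0.25, adjusted p 0.0431) and averaged by 0.82 (SE 0.18, adjusted p 0.00775). Nfya, a subunit of the factor that binds the Y box, rose averaged by 1.59 (SE 0.43, adjusted p 0.0309) from levels under 10 FPKM. The other 5 did not pass in any diet comparison, and the median difference of the 7 was 0.08 in Flox mice, 0.19 in ASKO mice and 0.09 averaged. Rfx5, a partner of Rfxank named after its values were seen, was at 9.07 ± 2.81 FPKM in Flox Chow and 4.09 ± 0.708 in Flox HFD mice, and at 11.8 ± 8.67 in ASKO Chow and 3.30 ± 0.885 in ASKO HFD mice. The diets did not overlap for Rfx5 in Flox mice, opposite in direction to Rfxank, where 8.34% of all genes had no overlap. In ASKO mice the diets overlapped for Rfx5 through ASKO Chow mouse 1, at 2.10 FPKM.

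Of 16 genes of the interferon gamma pathway, which induces MHC genes, 14 were tested, and limma called 0 in every comparison. Of all genes, 2.91% passed for diet in Flox mice, 3.43% in ASKO mice and 7.53% averaged, so a count of 0 is near these shares. Cxcl10 was lower on HFD without overlap in Flox mice, at 30.9 to 106 FPKM on chow and 0 to 24.2 FPKM on HFD. In ASKO mice the diets overlapped for Cxcl10. Ifngr2 was higher on HFD without overlap in ASKO mice, at 0 to 4.96 FPKM on chow and 5.46 to 9.14 FPKM on HFD. In Flox mice the diets overlapped for Ifngr2. Of all genes, 8.34% had no overlap between the diets in Flox mice and 9.60% in ASKO mice. Ifng itself was not in the table. The median averaged diet difference of the 14 genes was -0.15.

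Of 9 helpers of class I loading and trimming, Calr, the chaperone calreticulin, rose averaged by 0.55 (SE 0.14, adjusted p 0.0199) and the other 8 did not pass. Of 6 tested class I-like molecules outside the H2 names, Cd1d1, which shows lipids to natural killer T cells, was lower on HFD in ASKO mice. It was at 64.7 ± 21.3 FPKM in ASKO Chow mice and 26.6 ± 6.24 in ASKO HFD mice, a difference of -1.22 (SE 0.31, adjusted p 0.0393), and its averaged difference was -1.01 (SE 0.22, adjusted p 0.00822). The direction was opposite to that of the MHC chains. Of 5 tested costimulation genes, Cd86 rose averaged by 1.56 (SE 0.39, adjusted p 0.0190). Of 3 tested genes listed as receptors or coreceptors, Lilrb4a and Pirb, which belong to families of leukocyte inhibitory receptors, rose averaged by 2.04 (adjusted p 0.0311) and 1.52 (adjusted p 0.0422). Cd4 and Cd8a, the coreceptors of T cells, were listed at 0 in at least 12 mice.

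Of the cells that mainly carry class II, macrophages had 10 of 13 markers higher on HFD averaged over genotypes by limma. Dendritic cells had 1 of 6 tested and B cells 0 of 3 tested, where 7.53% of all genes passed in either direction. With so few markers tested for dendritic and B cells, these counts do not show a difference between the cell types, which was not tested. Of 13 macrophage markers, 6 rose past the limits on HFD in Flox mice, 8 in ASKO mice and 10 averaged, with none lower past them. Csf1r did not pass, at 51.0 ± 9.96 FPKM in ASKO Chow and 37.6 ± 6.51 in ASKO HFD mice, and 41.0 ± 3.78 in Flox Chow and 56.9 ± 20.4 in Flox HFD mice. Nor did Mertk, at 2.79 to 5.66 FPKM in ASKO Chow and 1.20 to 3.17 FPKM in ASKO HFD mice. The summed level of the 13 markers was 295, 333, 273 and 306 FPKM in Flox Chow mice and 791, 1129.6, 695 and 970.0 FPKM in Flox HFD mice. It was 258, 282, 311 and 292 FPKM in ASKO Chow mice and 1236, 1301, 865 and 1229.9 FPKM in ASKO HFD mice. All HFD mice stood above all chow mice, as they did for the sum of the class II chains. The most abundant marker was Lyz2, with a mean of 258 FPKM, and no marker of the list was at 0 in 12 or more mice. Cd68 rose by 2.71 in Flox mice (SE 0.66, adjusted p 0.0332) and 4.65 in ASKO mice (SE 0.66, adjusted p 0.000572). Ptprc, carried by all leukocytes, rose by 1.59 in Flox mice and 2.57 in ASKO mice (adjusted p 0.0126 and 0.000261).

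Of 9 dendritic cell markers, 6 were tested, and Itgax rose by 3.80 in Flox mice (SE 0.41, adjusted p 5.84e-05) and 5.14 in ASKO mice (SE 0.41, adjusted p 1.41e-06). Itgax is also carried by macrophages of obese fat. Clec9a was the most abundant marker of that list and did not pass, Flt3 was not in the table, and Batf3 and Siglech were at 0 in 12 or more mice. The dendritic sum was 33.1, 24.2, 13.9 and 20.3 FPKM in Flox Chow mice and 53.7, 95.7, 84.4 and 49.4 FPKM in Flox HFD mice. It was 47.3, 25.3, 53.4 and 13.2 FPKM in ASKO Chow mice and 83.1, 60.2, 86.1 and 82.8 FPKM in ASKO HFD mice. This sum includes Itgax. Without it the ASKO Chow mice stood at 47.3, 24.5, 53.4 and 13.2 FPKM and the ASKO HFD mice at 43.9, 22.5, 51.5 and 35.4 FPKM, which overlap. In Flox mice the sum without Itgax was at most 32.3 FPKM on chow and at least 33.8 FPKM on HFD. The median diet difference of the 6 tested markers was 0.78 in Flox mice and 0.14 in ASKO mice.

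Of 9 B cell markers, 3 were tested and limma called 0 in every comparison. Ighm was the most abundant, Fcmr was not in the table, and Ms4a1, Pax5, Cd22 and Blk were at 0 in 12 or more mice. The B cell sum was 38.5, 51.4, 31.0 and 59.5 FPKM in Flox Chow mice and 93.5, 39.8, 39.7 and 75.4 FPKM in Flox HFD mice. It was 51.3, 55.5, 37.3 and 42.7 FPKM in ASKO Chow mice and 40.2, 9.95, 37.0 and 32.3 FPKM in ASKO HFD mice, and it overlapped between the diets in both genotypes. The part of any cell type in the levels of the MHC genes was not tested.

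Of 9 adipocyte markers, Lep rose on HFD, and Adipoq and Cfd fell in both genotypes, with Pnpla2 also lower in ASKO mice. Averaged, 1 was higher and 6 were lower. The adipocyte sum was 10210.1, 17699, 13945 and 11260.2 FPKM in Flox Chow mice and 10637, 6388, 8486 and 4649 FPKM in Flox HFD mice. It was 8913, 13108, 25716 and 12406 FPKM in ASKO Chow mice and 7194, 7075, 6484 and 6394 FPKM in ASKO HFD mice. Of 11 T cell markers 2 were tested and called 0 times by limma, as were 6 of 7 endothelial markers. Of 5 natural killer markers none was tested. Of 5 tested mesothelial markers, Lrrn4 was lower on HFD in Flox mice and averaged (adjusted p 0.0344 and 0.0242), and all 8 HFD mice were listed at 0. The neutrophil markers S100a8 and S100a9 were each above 0 in a single mouse.

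**Figure D5:**
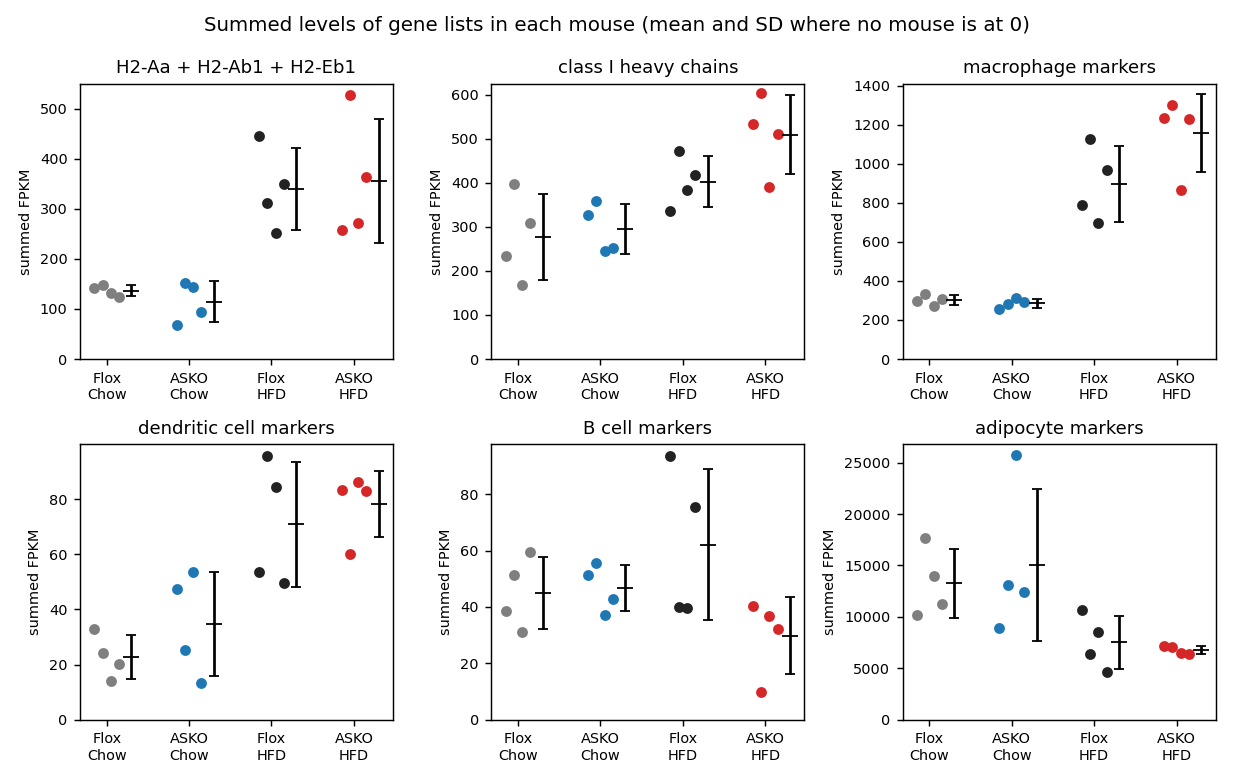
Summed FPKM (vertical axes) of the 3 class II chains, the class I heavy chains and 4 lists of cell markers in each mouse of the 4 groups (horizontal axes). Points are mice and bars beside them the mean and SD; the class II sum and the macrophage sum are higher in every HFD mouse than in every chow mouse, while the B cell sum overlaps.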

How the data were processed

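RNA of 16 gonadal fat samples was sequenced from directional mRNA libraries. By the submitters' notes the authors used STAR for alignment to mm10 and Cufflinks for the FPKM of each gene, and the deposited FPKM values were taken as they stand. The library normalization of Cufflinks and the strand setting of its counting are not stated. Of the gene identifiers, 99.6% were in GENCODE M21, which gave positions, overlaps and shared 50-base stretches. Values were taken as log2(FPKM + 1), and every gene that reached 1 FPKM in 4 or more mice was tested with limma (3.58.1, R 4.3.3). The 16 mice entered a single fit with an intensity trend and Benjamini-Hochberg adjustment over all genes within each of 5 comparisons. A gene passed at an adjusted p under 0.05 and a log2 difference past 0.5. The diet difference averaged over both genotypes was added after the data were seen. Single genes of the genotype comparisons also got a two-sided exact permutation test.

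Named were the main class II and class I genes, every member past the limits, every member whose genotypes did not overlap, the highest and lowest member of each class, and pathway or marker genes past the limits, at most 5 a list; other genes were named after their values were seen. The members and lists were chosen with earlier results of these data known. Where a symbol had more than 1 entry, the one with the highest mean stood for it in the lists. Alternatives changed the values (0.1 as pseudocount, quantile normalization or upper-quartile scaling), the genes (filter removed, or raised to 5 FPKM), or the fit (compared groups alone, trend removed, robust estimation, replicate number as block, or 1 mouse omitted at a time). The last ones changed the limits, by adjustment over the 5 comparisons together or by dropping the fold limit. Promoter windows came from RefSeq (GRCm38.p6). Values of a few single genes of the lists are not reported here.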

Additional observations from a re-analysis of the deposited data

Results flagged for a closer look

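Among 82 sets of 4 mice (a member in a group), 2 held a mouse whose gap to its nearest neighbour took up more of the range than a rule for 4 values (Dixon) allows, and chance alone does so in about 1 in 20 sets (5.0%). A further 22 sets with 2 or more mice at 0 were not checked. H2-Ab1 in ASKO HFD mice stood at 157 FPKM in mouse 1, with the next mouse at 89.3 FPKM, a gap of 0.9202 of the range. H2-DMa in ASKO Chow mice was listed at 0 in mouse 3, with the next mouse at 5.22 FPKM, a gap of 0.9494 of the range.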

How the results depend on the processing

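No member that passed, with or without an alternative, changed sign between them. In the genotype comparisons and the interaction, 0 members passed under every alternative and with any mouse left out. For diet in Flox mice, class I members past the limits numbered 2, and 1 without a filter, 0 with only the compared groups, 1 without the intensity trend and 0 with adjustment over the 5 comparisons, and from 0 to 2 with a mouse left out. Class II members numbered 1, and 0 without the intensity trend, 0 with adjustment over the 5 comparisons, and from 0 to 2 with a mouse left out. For diet in ASKO mice, class I numbered 0, and 2 with quantile normalization and 2 with upper-quartile scaling, and 0 with any mouse left out. Class II numbered 2, and 1 with only the compared groups, 3 (H2-Ab1 added) with the filter of 5 FPKM, quantile normalization or upper-quartile scaling, and 2 to 3 with a mouse left out. For diet averaged, class I numbered 2, and 1 without a filter, 5 with quantile normalization, 6 with upper-quartile scaling, 1 without the intensity trend, 3 (H2-K1 added) with the filter of 5 FPKM or robust estimation, and 1 to 3 with a mouse left out. Class II numbered 3, and 5 with upper-quartile scaling, 4 (H2-DMb1 added) with the pseudocount of 0.1 or the filter of 5 FPKM, and 3 to 5 with a mouse left out. The cause of these shifts was not tested.

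Over all genes, diet in Flox mice gave 383 calls, and 255 with only the compared groups and 256 with adjustment over the 5 comparisons. Diet in ASKO mice gave 451, and 265 with only the compared groups and 286 with adjustment over the 5 comparisons. With a mouse left out, these counts ran from 255 to 421 and from 265 to 493. Diet averaged over both genotypes gave 990, and 821 to 1022 with a mouse left out. Genotype on HFD gave 1 call, and 2 without a filter, 0 with the filter of 5 FPKM, quantile normalization or only the compared groups, 13 with adjustment over the 5 comparisons, and 0 to 3 with a mouse left out. Genotype on chow gave 1, and 2 without a filter, 0 with the filter of 5 FPKM, upper-quartile scaling or robust estimation, 11 with adjustment over the 5 comparisons, and 0 to 4 with a mouse left out. The interaction gave 0, and 8 with adjustment over the 5 comparisons, and 0 to 1 with a mouse left out.

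With the replicate number as a block, members past the limits numbered 2 and 1 (class I and class II) for diet in Flox mice, 0 and 2 in ASKO mice and 3 and 3 averaged, where H2-K1 was added (adjusted p 0.0241). They numbered 0 in the genotype comparisons and the interaction, and over all genes the block gave 361, 390 and 926 diet calls and 0 calls for the others. The labels do not say whether the numbers pair the mice. Over 24 pairs of mice with the same number, the correlation of their deviations across genes ran from -0.187 to 0.152 with a median of 0.00659, and 1 pair was over 0.1. Of the 16 mice, 8 correlated best with mice of their own number, where chance alone gives fewer on average with 4 mice in a group. These values do not settle whether the mice are paired.

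Of single-gene results under the alternatives, 4020 kept their side of the limits, 38 moved past them and 46 no longer passed. At 2.35 to 4.02 FPKM for 1 fragment on 1 kb, depth limits the values of the low genes, Ciita, Nlrc5, Tap1, Tap2, H2-Ob and the H2-DM chains among them.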
